A study of Mus musculus with 8 samples.

Results

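The lysyl oxidases and lysyl hydroxylases, the enzymes that prepare and form the covalent crosslinks of collagen, were examined in RNA-seq of mouse cortical bone with and without deletion of the fibroblast growth factor receptor gene Fgfr1. The members were taken by symbol (Lox, Loxl1 to Loxl4 and Plod1 to Plod3), and 7 of the 8 symbols stood among the 1994 genes of the table: Lox, Loxl1, Loxl2, Loxl3, Loxl4, Plod1 and Plod2. Plod3 was not listed, and nothing is said of its level here. The bone was the shaft of the femur of 16-week-old mice, with the marrow flushed out. Control mice were Fgfr1f/f, with both copies of the gene flanked by loxP sites and no Cre. FGFR1-CKO mice were DMP1-CreER; Fgfr1f/f, so that a tamoxifen-activated Cre under the Dmp1 promoter, active in late osteoblasts and osteocytes, acts on the same floxed gene. Mice of both genotypes ate chow with tamoxifen at 400 mg/kg for 4 weeks from 12 weeks of age, and since Control mice lack Cre, its presence and the loss of Fgfr1 cannot be told apart. Each group held 4 libraries, picked by the submitters out of 6 Control and 7 FGFR1-CKO samples for high and low Fgfr1 respectively. The genes of the table were also picked by the submitters because they differed in this same contrast. A genotype difference of a listed gene is therefore given below as a size with its error, and its p-value is conditional on both choices.

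Collagen crosslinks begin inside the cell, where lysyl hydroxylases (Plod genes) add hydroxyl groups to lysines of the new collagen chains while these fold. After secretion, lysyl oxidases (Lox and Loxl genes), which carry copper and a quinone cofactor, turn lysines and hydroxylysines at the ends of the molecules into reactive aldehydes, which then join neighbouring molecules in the fibril. Hydroxylation decides which kind of crosslink forms, and bone collagen is rich in the kinds that start from hydroxylysine. Loss of PLOD2 function in humans causes Bruck syndrome, with fragile bones and joint contractures, and loss of PLOD1 function causes a kyphoscoliotic form of Ehlers-Danlos syndrome.

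The 5 oxidases share a catalytic domain whose copper site is set by a cluster of histidines, and the coding bases of that cluster are shown because they show how near to each other the Loxl genes are. They were read 5′ to 3′ in the sense of the gene from GENCODE M21 transcripts (mm10), with the 4 histidine codons of each in capitals. The stretch crosses an exon junction in each of the 4 genes shown: in Loxl1 it starts in exon 3 of 7 (chr9:58293720-58294381, minus strand), in Loxl2 in exon 10 of 14 (chr14:69682316-69689037, plus strand), in Loxl3 in exon 10 of 14 (chr6:83049995-83050125, plus strand) and in Loxl4 in exon 11 of 15 (chr19:42598807-42599899, minus strand), with the intron included in the coordinates.
Loxl1: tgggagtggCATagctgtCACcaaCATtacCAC
Loxl2: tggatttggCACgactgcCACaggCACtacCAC
Loxl3: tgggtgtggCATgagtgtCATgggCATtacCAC
Loxl4: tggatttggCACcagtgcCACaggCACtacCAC
Loxl2 and Loxl4 had 31 of these 33 bases in common, Loxl3 had 25 in common with each of the other Loxl genes, and Loxl1 had 22 in common with Loxl2 and 21 with Loxl4. Across whole transcripts, no run of 50 bases was shared by any of the 21 pairs of members, so a read of that length or more from a member has no identical copy in another member. Other annotated genes do overlap some members: Htra2 on the opposite strand shares 535 bases, 11.6% of the exonic length of Loxl3, and an antisense transcript shares 301 bases, 5.57%, of Loxl2. Whether the authors counted by strand is not given in the sources used here, so reads in these stretches cannot be assigned with certainty.

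RefSeq promoter windows (GRCm38.p6, 300 bases each, most of them upstream of the start of the gene) matched 2 of the 7 members, Loxl4 and Plod1, and both are shown. They were also the members with the smallest genotype differences. Both genes lie on the minus strand and are written in their own sense, with matches to the GC box GGGCGG, on either strand, in capitals.
Loxl4 promoter, chr19:42612757-42613056: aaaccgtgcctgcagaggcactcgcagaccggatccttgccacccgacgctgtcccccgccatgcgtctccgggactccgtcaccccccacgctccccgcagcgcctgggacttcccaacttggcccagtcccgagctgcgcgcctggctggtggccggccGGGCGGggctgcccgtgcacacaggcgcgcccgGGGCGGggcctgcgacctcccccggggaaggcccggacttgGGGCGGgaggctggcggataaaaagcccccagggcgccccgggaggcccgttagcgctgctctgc
Plod1 promoter, chr4:147936727-147937026: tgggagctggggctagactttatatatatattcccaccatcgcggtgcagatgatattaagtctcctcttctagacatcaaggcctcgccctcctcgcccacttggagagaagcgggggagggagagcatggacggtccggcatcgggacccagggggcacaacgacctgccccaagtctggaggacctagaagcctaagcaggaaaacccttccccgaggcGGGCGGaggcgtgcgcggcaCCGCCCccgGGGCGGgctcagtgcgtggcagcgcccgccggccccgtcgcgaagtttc
The Loxl4 window had a GC content of 75% and the Plod1 window 64.3%, both above the upper quartile of 61.7% over 32851 RefSeq promoter windows of the same length. Each held 3 GC boxes, a motif found at least once in 35.7% of all windows. The TATA box letters TATAAA, sought on either strand, matched 1 time in Plod1 and 0 times in Loxl4, against 13.6% of all windows with a match. The Plod1 match is on the strand opposite to the gene, near the upstream end of the window. On both strands, neither window held TGTGGT, a Runx core motif (16.8% of windows), TGANTCA, the AP-1 motif (7.81%), ACGTG, the core of the hypoxia response element (19.6%), or GGAATG, a TEAD motif (14.7%). These matches describe the letters of the windows and no more.

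The libraries held 9642436 to 11094287 reads, and the values are CPM, read counts scaled to a fixed library total. Mean Fgfr1 was 594 ± 71.3 CPM for the Control libraries and 318 ± 32.1 CPM for the others (SD, n = 4 each), a difference set in part by how the samples were picked. FGFR1-CKO replicate 3 stood apart: over the listed genes its chi-square per degree of freedom against each of the others of its group was 55.3 to 74.9, against 4.71 to 7.7 among those others and 18.9 to 65 among Control libraries. It was left out together with Control replicate 4, the lowest Control library for 5 of the members. The largest chi-square values of Control, 65 and 57.7, were both of pairs with Control replicate 2. For Lox, Loxl2 and Plod1, Control replicate 4 was lowest and FGFR1-CKO replicate 3 highest of its group, so leaving out both must widen the fall. The value without both is thus a description, given where it changes whether a gene passes. It is also given where it moves a member's log2 fold change or ratio to collagen I by over 1.5 times.

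The question for the lysyl hydroxylases and oxidases was how far their RNA differed between the genotypes. All 7 listed members were lower in FGFR1-CKO bone, and Lox, Loxl1, Loxl2, Loxl3 and Plod2 passed the test, with mean CPM between 51.1% and 63.8% of Control. Loxl4 and Plod1 had the smallest differences and did not reach the fold threshold. A gene passed when its adjusted p in limma, a linear model fitted over all 1994 genes on log2(CPM + 1) with Benjamini-Hochberg adjustment, was under 0.05 and its log2 fold change was at least 0.5 in size. Of all listed genes 38.4% passed as lower, against 5 of the 7 members. In bulk bone RNA, fewer cells of a type and less RNA per cell cannot be told apart.

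Of the hydroxylases, Plod2 (ENSMUSG00000032374, mm10 chromosome 9, 92542223 to 92608428, plus strand), which modifies the lysines at the ends of collagen molecules that become crosslinks, was the more abundant. It measured 181, 225, 205 and 158 CPM in Control replicates 1 to 4 and 97.9, 101, 120 and 124 CPM in FGFR1-CKO replicates 1 to 4. Each FGFR1-CKO library was below each Control library, with Control replicate 4 the lowest of its group. The mean fell from 192 ± 29.0 to 111 ± 13.2 CPM (SD, n = 4 each), and the log2 fold change was -0.79 (standard error 0.118, 95% confidence interval -1.05 to -0.53, limma adjusted p = 8.94e-05). In an exact two-sided permutation test of the 70 ways to split 8 libraries, p was 0.0286, the smallest that 4 against 4 allow.

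Plod1 (ENSMUSG00000019055, mm10 chromosome 4, 147909753 to 147936767, minus strand), the hydroxylase of lysines in the helical part of collagen, measured 90.5, 99.7, 92.7 and 86.2 CPM in Control replicates 1 to 4 and 63.9, 61.9, 73.8 and 65.3 CPM in FGFR1-CKO replicates 1 to 4. The groups did not overlap, and FGFR1-CKO replicate 3 was the highest of its group. The means were 92.3 ± 5.63 and 66.2 ± 5.23 CPM (SD, n = 4 each), and the log2 fold change of -0.47 (standard error 0.077, 95% confidence interval -0.64 to -0.30, limma adjusted p = 0.000163) was short of the fold threshold. It was -0.51 without Control replicate 4, -0.53 without FGFR1-CKO replicate 3 and -0.56 without both, past the threshold in each case. These are the lowest Control and the highest FGFR1-CKO library for Plod1. With any other single library left out, the log2 fold change of Plod1 was -0.48 to -0.44, short of the threshold. Plod2 made up 67.4 ± 2.11% of the summed CPM of both hydroxylases in Control and 62.5 ± 2.17% in FGFR1-CKO (SD, n = 4 each). The log2 ratio of Plod1 to Plod2 was 0.31 higher in FGFR1-CKO (95% interval -0.05 to 0.56, exact two-sided permutation p = 0.0571), a difference that did not pass.

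Lox (ENSMUSG00000024529), the founding lysyl oxidase and the main one of bone and skin collagen, was the most abundant member. It measured 533, 659, 558 and 452 CPM in Control replicates 1 to 4 and 269, 258, 341 and 322 CPM in FGFR1-CKO replicates 1 to 4. The groups were fully apart, Control replicate 2 being the highest and Control replicate 4 the lowest of the Control libraries. The mean fell from 550.4 ± 85.4 to 297.5 ± 40.0 CPM (SD, n = 4 each), a log2 fold change of -0.88 (standard error 0.125, 95% confidence interval -1.16 to -0.61, limma adjusted p = 6.31e-05). The exact permutation p was 0.0286, two-sided.

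Loxl1 (ENSMUSG00000032334, mm10 chromosome 9, 58287738 to 58313186, minus strand), an oxidase known for its part in elastic fibre upkeep, measured 184, 184, 182 and 165 CPM in Control replicates 1 to 4 and 101, 101, 105 and 114 CPM in FGFR1-CKO replicates 1 to 4. Control replicate 4 lay below the other Control libraries and FGFR1-CKO replicate 4 above the rest of its group, with a gap left between the groups. The means were 179 ± 9.04 and 105 ± 6.11 CPM (SD, n = 4 each), for a log2 fold change of -0.76 (standard error 0.070, 95% confidence interval -0.91 to -0.61, limma adjusted p = 8.33e-06). The exact permutation p was 0.0286, two-sided.

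Loxl2, Loxl3 and Loxl4 form a branch of the family that also carries scavenger receptor cysteine-rich domains. Loxl2 (ENSMUSG00000034205, mm10 chromosome 14, 69609068 to 69695834, plus strand), which acts on collagen IV of basement membranes as well as on fibrillar collagens, had the widest spread and, over all 8 libraries, the largest fall. It measured 146, 195, 135 and 71.7 CPM in Control replicates 1 to 4 and 60.5, 41.8, 105 and 73.1 CPM in FGFR1-CKO replicates 1 to 4. The groups overlapped: Control replicate 4 lay below FGFR1-CKO replicates 3 and 4. The means were 137 ± 50.6 and 69.99 ± 26.4 CPM (SD, n = 4 each). Loxl2 passed limma (log2 fold change -0.95, standard error 0.305, 95% confidence interval -1.62 to -0.28, adjusted p = 0.0107), while the exact two-sided permutation p was 0.0857. Leaving out Control replicate 4 and FGFR1-CKO replicate 3, the lowest and the highest of their groups for Loxl2, must widen the fall. The log2 fold change of Loxl2 was then -1.44 (limma adjusted p = 7.91e-05), which adds no support. Its first place among the members rested on single libraries: without FGFR1-CKO replicate 2 it was -0.73, beside -0.82 for Lox, and without Control replicate 2 it was -0.75, beside -0.79 for Lox.

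Loxl3 (ENSMUSG00000000693, mm10 chromosome 6, 83034173 to 83052562, plus strand), an oxidase needed for palate and spine formation in mice, was the least abundant member per length of transcript and the least variable. It measured 47.2, 48.0, 43.8 and 49.2 CPM in Control replicates 1 to 4 and 29.9, 29.5, 30.4 and 30.3 CPM in FGFR1-CKO replicates 1 to 4. Control values lay well above FGFR1-CKO values, which differed from each other by little: their coefficient of variation was 1.28%, against 4.96% in Control. Counting error alone, at these read numbers, gives 5.8% in FGFR1-CKO and 4.48% in Control, so the spread of Loxl3 was close to counting error or below it. The means were 47.0 ± 2.33 and 30.0 ± 0.383 CPM (SD, n = 4 each), for a log2 fold change of -0.63 (standard error 0.067, 95% confidence interval -0.78 to -0.48, limma adjusted p = 1.17e-05). The exact permutation p was 0.0286, two-sided.

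Loxl4 (ENSMUSG00000025185, mm10 chromosome 19, 42593982 to 42612813, minus strand), the remaining oxidase, measured 58.9, 61.2, 61.8 and 70.8 CPM in Control replicates 1 to 4 and 45.1, 48.9, 46.0 and 43.3 CPM in FGFR1-CKO replicates 1 to 4. The groups did not overlap, and Control replicate 4, low for Lox, Loxl1, Loxl2 and both hydroxylases, was here the highest library. The means were 63.2 ± 5.24 and 45.8 ± 2.32 CPM (SD, n = 4 each), and the log2 fold change of -0.45 (standard error 0.077, 95% confidence interval -0.62 to -0.28, limma adjusted p = 0.000217) did not reach the fold threshold. Between 288 reads (Loxl3) and 7312 reads (Lox) lay behind each value of a member in a library.

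**Figure D1:**
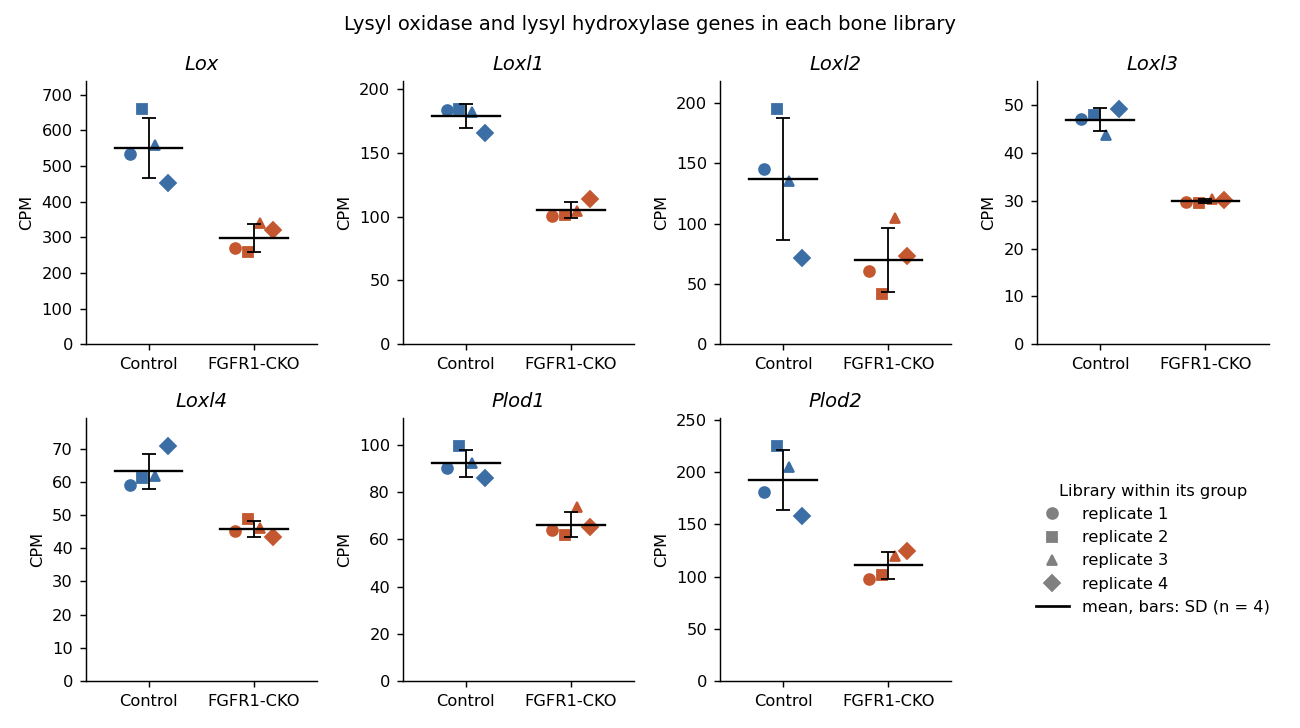
CPM of the 7 listed lysyl oxidase and lysyl hydroxylase genes, 1 point per library with its replicate shown by shape (replicate numbers name libraries and pair nothing across groups), lines at group means and bars for the SD (n = 4). In each panel but Loxl2 all FGFR1-CKO points lie below all Control points, and in the Loxl2 panel Control replicate 4 (71.7 CPM) sits below 2 FGFR1-CKO libraries.

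Summed over the 5 oxidases, CPM was 976 ± 138 in Control and 549 ± 67.9 in FGFR1-CKO (SD, n = 4 each), and over both hydroxylases 285 ± 34.5 and 177 ± 16.9. Lox made up 56.3 ± 1.08% of the oxidase sum in Control and 54.2 ± 0.845% in FGFR1-CKO (SD, n = 4 each). Among the 1265 listed genes with lower values in FGFR1-CKO, ranked from the largest difference, Loxl2 ranked 70, Lox 106, Plod2 177, Loxl1 213, Loxl3 438, Plod1 843 and Loxl4 924. The median log2 fold change of the members was -0.76, beside -0.43 over all listed genes and -0.54 over the lower ones. In 6 of the 7 members the groups did not overlap, and this was so for 90.5% of listed genes, so the lack of overlap is near the background. The sign was negative in 7 of 7 members and in 63.4% of listed genes.

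Which members passed depended on how the libraries were scaled. As an alternative, reads were divided by the size factors behind the authors' mean normalized counts in place of the library totals used for CPM. Log2 fold changes of all listed genes then shifted by a median of -0.11, and each member shifted by as much. Loxl4 (-0.56, limma adjusted p = 0.000124) and Plod1 (-0.58, limma adjusted p = 0.000304) then passed, so that 7 of 7 members did, beside 57.9% of listed genes passing as lower. Over all listed genes 729 passed as higher and 766 as lower with CPM, and 651 and 1154 after rescaling, which took the share of lower genes among those that passed from 51.2% to 63.9%. The authors' deposited table gives log2 fold changes of -1.0 for Lox, -0.88 for Loxl1, -1.07 for Loxl2, -0.76 for Loxl3, -0.57 for Loxl4, -0.59 for Plod1 and -0.91 for Plod2. In the authors' deposited table the adjusted p of Loxl2, 0.0406, was the largest among the members and that of Loxl1, 6.61e-26, the smallest.

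**Figure D2:**
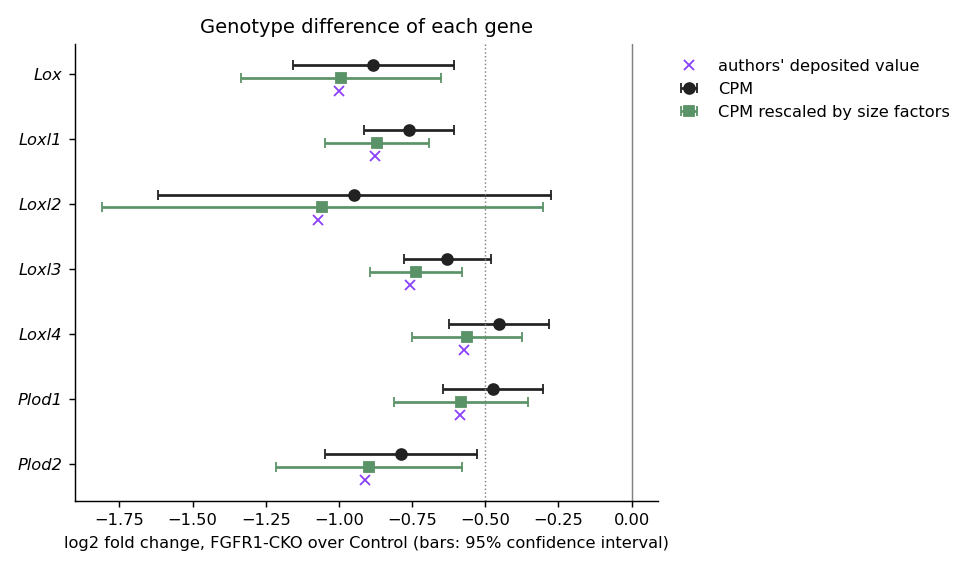
Log2 fold change of each member, FGFR1-CKO over Control, from limma with 95% confidence intervals, and the authors' deposited value (crosses, no error drawn). Circles are CPM. Squares, labelled CPM rescaled by size factors, are reads divided by size factors in place of library totals. The dotted line marks the threshold of -0.5. Rescaling moves Loxl4 from -0.45 to -0.56 and Plod1 from -0.47 to -0.58, across the line, and the interval of Loxl2 is the widest.

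The levels of the members kept the same order in both genotypes when CPM was divided by the exonic length of the gene. In Control the mean was 115 ± 17.9 CPM per kb for Lox, 54.3 ± 2.74 for Loxl1, 35.7 ± 5.38 for Plod2, 25.3 ± 9.37 for Loxl2, 15.0 ± 1.25 for Loxl4, 13.6 ± 0.833 for Plod1 and 10.2 ± 0.507 for Loxl3 (SD, n = 4 each). In FGFR1-CKO the same order ran from 62.3 ± 8.38 CPM per kb for Lox down to 6.52 ± 0.0831 for Loxl3 (SD, n = 4 each). Lox and Loxl1 stood clear of each other and of the rest in both groups, and so did Loxl3 at the bottom. The neighbours Plod2 and Loxl2, Loxl2 and Loxl4, and Loxl4 and Plod1 had overlapping ranges in each group. Within libraries, Plod2 was above Loxl2 in 4 of 4 libraries of each genotype, Loxl2 above Loxl4 in 3 of 4 of each, and Loxl4 above Plod1 in 3 of 4 Control and 4 of 4 FGFR1-CKO libraries. Exonic lengths are those of all annotated transcripts merged, and these levels shift with the isoforms used.

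The members did not vary alike among libraries of the same genotype. In Control replicate 4 Lox, Loxl2 and Plod2 lay 0.27, 0.84 and 0.27 below the group mean on the log2(CPM + 1) scale, and in FGFR1-CKO replicate 3 they lay 0.21, 0.65 and 0.12 above it. Over the 8 libraries, after taking out the group means, Pearson's r was 0.95 between Lox and Plod2, 0.94 between Lox and Loxl2, 0.91 between Lox and Plod1 and 0.74 between Lox and Loxl1. Loxl4 went the other way, with r of -0.65 with Lox, -0.75 with Loxl2 and -0.85 with Loxl1. Loxl3 had r between -0.22 and 0.31 with every other member. The spread of Loxl3 was close to counting error or below it, so its low r does not show that it varied differently. These correlations are descriptions over 8 libraries that also differ in depth and marker levels, and carry no p.

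**Figure D3:**
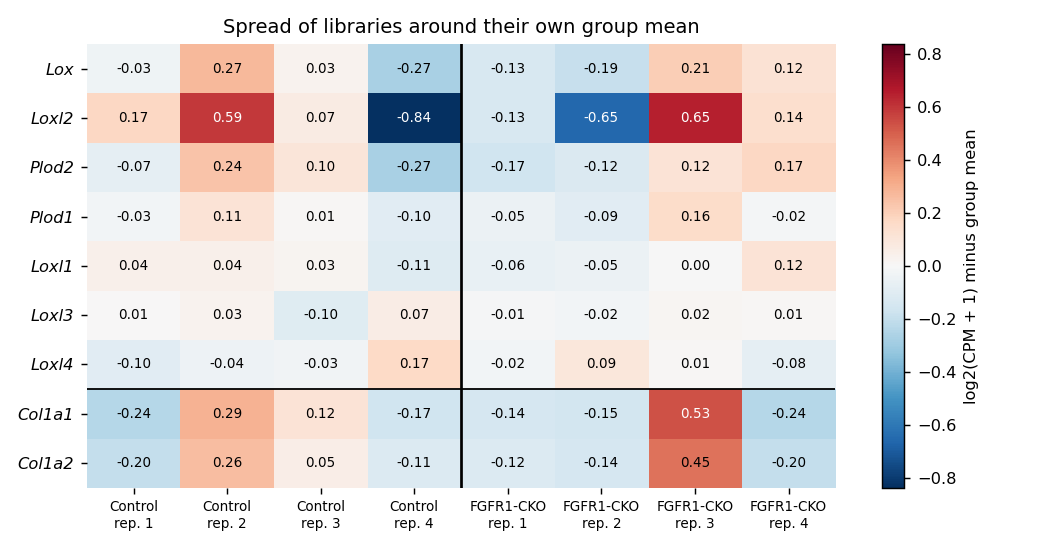
Deviation of each library from its own group mean on the log2(CPM + 1) scale, for the 7 members and the collagen I chains Col1a1 and Col1a2; columns are libraries, the vertical line parts the genotypes, red is above and blue below the group mean. Loxl2 ranges from -0.84 in Control replicate 4 to 0.65 in FGFR1-CKO replicate 3, and in Control replicate 4 Loxl4 is above its mean (0.17) while Lox is below (-0.27).

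For each member the 3 other listed genes with the highest within-group r over the 8 libraries were taken. For Lox they were Gpr153 (0.995), an orphan receptor, Sh3pxd2a (0.98), a podosome adaptor, and Dusp14 (0.977), a phosphatase. For Plod2 they were P3h1 (0.99), a prolyl 3-hydroxylase of collagen, Fndc4 (0.988) and the nuclear receptor gene Nr4a2 (0.976). For Plod1 they were Col5a1 (0.984), a collagen V chain, Sparc (0.984), the collagen-binding bone protein osteonectin, and Dbn1 (0.98), which encodes the actin-binding protein drebrin. All 9 of these genes had negative log2 fold changes, from -1.02 for Sparc to -0.51 for Nr4a2.

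The 3 genes most like Loxl1 were Serpinh1 (0.98), the collagen chaperone also called Hsp47, the receptor phosphatase gene Ptprd (0.979) and Copz2 (0.978), a coatomer subunit. Those most like Loxl2 were Col15a1 (0.995), a collagen of basement membrane zones, Gng4 (0.987), a G protein subunit, and C1qtnf6 (0.979). Loxl3 had Arhgef28 (0.969), Plce1 (0.949) and the formin gene Fmn1 (0.945). Loxl4 had Ddah2 (0.988), Ckb (0.986), the brain-type creatine kinase, and Phldb1 (0.982). Ckb is also one of the osteoclast markers counted below. No member was among the 3 genes most like another member. With 1994 genes compared over 8 libraries, a high r is no finding by itself.

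Whether the enzymes changed in proportion to the collagen they act on was asked with the log2 ratio of each member to the mean of both collagen I chains, Col1a1 and Col1a2. The listing of the genes does not fix the direction of this ratio. Mean Col1a1 was 93930 ± 16270 CPM for Control libraries and 53080 ± 14610 CPM for FGFR1-CKO libraries (SD, n = 4 each), and its log2 fold change was -0.84, as was that of Col1a2. FGFR1-CKO replicate 3 had the highest Col1a1 of its group, 74903 CPM. The ratio of Lox to collagen I was -6.76, -6.95, -7.00 and -7.07 in Control replicates 1 to 4 and -6.99, -7.03, -7.27 and -6.64 in FGFR1-CKO replicates 1 to 4. The groups overlapped, and the genotype difference was -0.04 (95% interval -0.51 to 0.43, exact two-sided permutation p = 0.857).

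The ratio of Plod1 to collagen I was -9.30, -9.66, -9.57 and -9.45 in Control replicates 1 to 4 and -9.05, -9.07, -9.46 and -8.93 in FGFR1-CKO replicates 1 to 4. All FGFR1-CKO libraries but replicate 3 lay above all Control libraries, and the difference was 0.37 (95% interval -0.16 to 0.73, exact two-sided permutation p = 0.0857). It was 0.39 for Loxl4 (95% interval -0.40 to 0.94, p = 0.114 by the same exact test) and 0.21 for Loxl3 (-0.49 to 0.69, exact p = 0.229). Without FGFR1-CKO replicate 3 and Control replicate 4 these were 0.65 for Loxl4 and 0.44 for Loxl3, and with FGFR1-CKO replicate 3 alone left out 0.37 for Loxl3. Without Control replicate 2 the Loxl3 difference was 0.13, and without FGFR1-CKO replicate 4 it was 0.14. The differences of Loxl1 (0.08, interval -0.68 to 0.65), Plod2 (0.05, interval -0.47 to 0.57) and Loxl2 (-0.11, interval -1.01 to 0.94) were nearer to 0, with exact p from 0.686 to 0.771. None of the 7 ratios passed: 0 had an unadjusted exact p under 0.05, and the smallest p adjusted over the 7 was 0.4. A single ratio at the smallest p that 4 against 4 allow could not pass after this adjustment, so the intervals say more than the count. They leave room for differences of 0.4 or more in each direction for Lox, Loxl1, Loxl2, Loxl3, Loxl4 and Plod2.

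**Figure D4:**
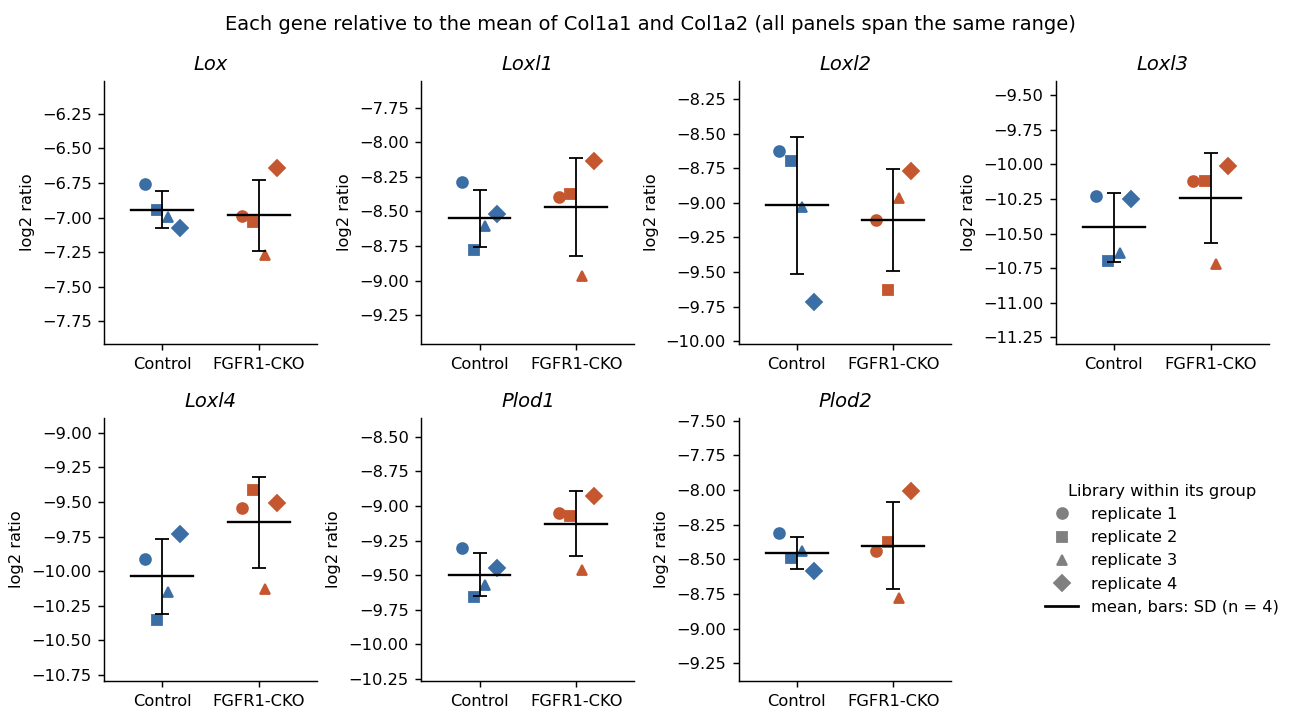
Log2 ratio of each member to the mean of Col1a1 and Col1a2 in each library, with the group mean and SD (n = 4); the panels differ in level but span the same range. Groups overlap in all panels, and FGFR1-CKO replicate 3, the library of its group with the most Col1a1, is the lowest FGFR1-CKO point in each panel but Loxl2.

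Against the mean of 18 osteoblast markers in place of collagen I, Plod1 was 0.36 higher (95% interval 0.22 to 0.48), Loxl4 0.38 higher (0.09 to 0.58) and Loxl3 0.20 higher (0.03 to 0.41) in FGFR1-CKO, each with the groups apart and an exact two-sided permutation p of 0.0286. Adjusted over the 7 ratios these p-values were 0.0667, so none passed, and 3 ratios at the smallest possible p could not pass. All 18 markers are listed genes and were lower, their mean log2(CPM + 1) differing by -0.83. A member that fell by less must come out higher against them, so these differences are descriptions. Lox, Loxl1, Loxl2 and Plod2 differed by -0.05, 0.07, -0.11 and 0.05 against the same markers, with exact p from 0.314 to 0.743. Among the 21 pairs of members 0 passed after adjustment, the smallest adjusted p of the exact tests being 0.2, and 2 had an unadjusted p under 0.05. With 21 pairs a few at the smallest possible p could not pass, so this count of 0 does not show that the ratios were the same. These were the ratio of Lox to Plod1, with a genotype difference of -0.41 (95% interval -0.67 to -0.09), and that of Loxl1 to Plod1, with -0.29 (-0.51 to -0.09), both with an exact p of 0.0286. Loxl4 and Plod1, the members with the smallest genotype differences, had a ratio that differed by 0.02 (95% interval -0.39 to 0.36, exact p = 0.857).

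Proteins that work with the crosslinking enzymes formed a list of 22 genes, of which 11 were listed. Of these 9 passed as lower, against 38.4% of all listed genes, while Fn1 (-0.48) and Fbln5 (-0.45) were lower but did not pass. The median log2 fold change was -0.69, beside -0.43 over all listed genes. All 11 passed as lower after rescaling by size factors, beside 57.9% of all listed genes. Without Control replicate 4 and FGFR1-CKO replicate 3, 10 passed. Bmp1, the protease that cuts the Lox proenzyme and procollagen, fell from 358 ± 33.6 to 228 ± 13.9 CPM (SD, n = 4 each; log2 fold change -0.65, limma adjusted p = 3.41e-05). Its enhancer Pcolce fell from 194 ± 33.4 to 98.8 ± 13.9 CPM (-0.96), and periostin (Postn), a matrix protein that binds Bmp1 and aids Lox activation, from 725 ± 138 to 357 ± 38.9 CPM (-1.01).

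Partners of the hydroxylases in the endoplasmic reticulum also fell. Fkbp10, a chaperone needed for Plod2 to act on the ends of collagen, went from 180 ± 13.6 to 106 ± 7.34 CPM (SD, n = 4 each; log2 fold change -0.76). P3h3 (-0.64) and P3h4 (-0.69), which form a complex with Plod1, and Serpinh1 (-1.13; 963 ± 138 to 437 ± 60.2 CPM) passed too. The remaining genes that passed were Efemp2 (-0.71), a fibulin that brings Lox to elastin, and fibromodulin (Fmod, -0.68). Fibromodulin directs Lox to sites on collagen. The copper transporters Atp7a and Slc31a1 and the copper chaperone Atox1, which supply the metal of the oxidases, were not listed, nor were Tll1, Tll2, Pcolce2, Thbs1, Tnxb, Ppib, Colgalt1 and Colgalt2.

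Of 12 substrate genes 9 were listed, all lower, with a median log2 fold change of -0.84. Of these 8 passed, beside 38.4% of all listed genes passing as lower. Besides the collagen I chains these were Col5a1 (-0.78), Col5a2 (-0.91), Col11a2 (-0.64), Col24a1 (-0.94), Col27a1 (-0.59) and elastin (Eln, -0.85), while Col5a3 (-0.46) missed the fold threshold and passed after rescaling and without Control replicate 4 and FGFR1-CKO replicate 3. Of 7 genes for prolyl hydroxylases and the P3h1 partner Crtap, which modify prolines of the same chains, 5 were listed and 5 fell: P4ha3 (-1.05), P4ha2 (-0.89), P3h1 (-0.72), P4ha1 (-0.67) and Crtap (-0.63). The log2 fold changes of all 7 members lay within the range of these 3 lists, -1.13 to -0.45. The end nearer 0 is set in part by the listing, which holds no gene under 0.495 in absolute log2 fold change in the authors' values.

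**Figure D5:**
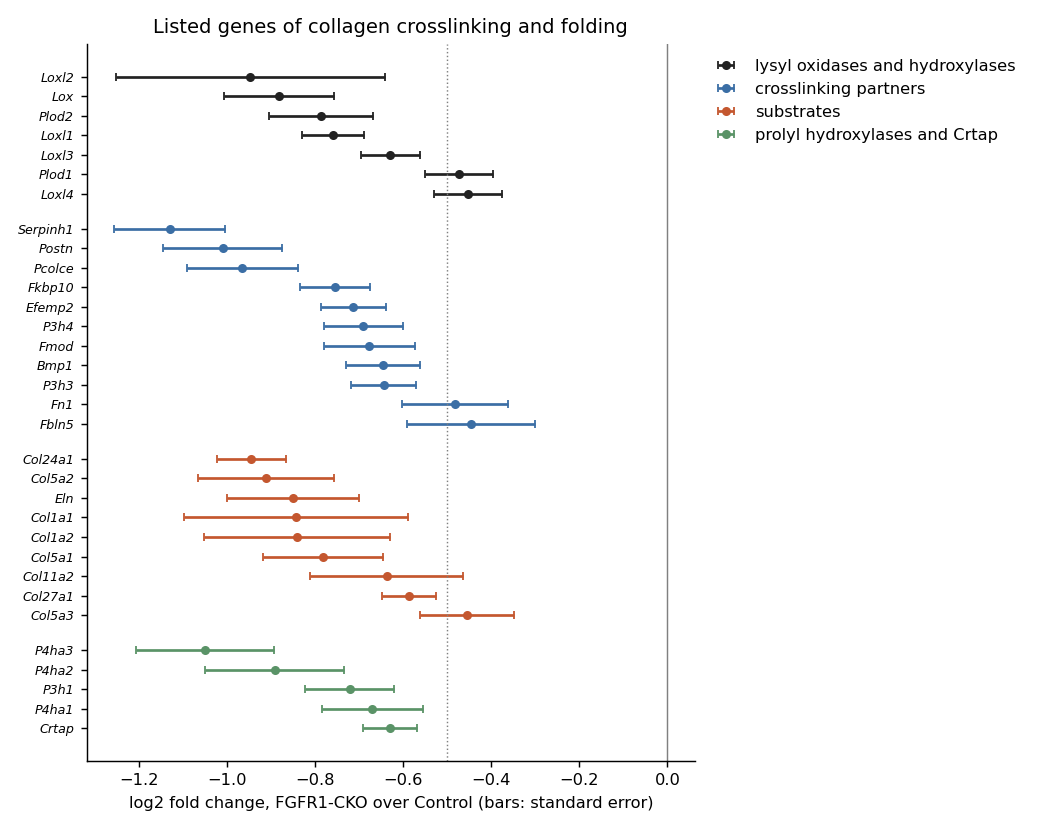
Log2 fold changes, FGFR1-CKO over Control, with standard errors from limma on log2(CPM + 1), for the members (black), their listed partners (blue), substrates (orange) and prolyl hydroxylases with Crtap (green); the dotted line marks -0.5. All points lie left of 0, from Serpinh1 at -1.13 to Fbln5 at -0.45.

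The authors' deposited table marks genes by function. All 7 members are among the 24 genes of its collagen fibril organization list and among the 72 lower genes it marks for matrix organization, 3.61% of the listed genes. Of its sheet of 37 collagen-related genes, 3 are members: Lox, Loxl1 and Loxl3. It also marks 183 genes, 9.18% of those listed, by an experiment in Ocy454, a mouse osteocyte cell line, and 0 of the 7 members carry that mark.

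Markers of other cells moved with the genotype in both directions, and their part in the member values was not tested. Beside the counts below, 36.6% of all listed genes passed as higher and 38.4% as lower. Of 20 erythroid genes 19 were listed and 19 rose, and their summed CPM was 7221 to 10250 in Control and 20950 to 24880 in FGFR1-CKO, led by Hba-a1 (log2 fold change 1.43) and Hbb-bs (1.47). Of 15 neutrophil genes 9 were listed and 9 rose (8703 to 10790 against 14370 to 16840 CPM, with Ngp and S100a9 the highest). All 18 osteoblast genes were listed and lower, and 17 passed (7448 to 8284 against 3878 to 4681 CPM, led by Bglap and Spp1). Of 12 osteocyte genes 8 were listed and 7 fell (2336 to 2749 against 1440 to 1608 CPM), with Dmp1 at 928 ± 79.9 and 601 ± 16.5 CPM (SD, n = 4 each) and Mepe next, so the markers of the labelled tissue were present in both groups.

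Other cells that make collagen or crosslinking enzymes were checked in the same way. Of 11 tendon and periosteal fibroblast genes 6 were listed and 6 passed as lower (1474 to 2034 against 889 to 1049 CPM, led by Postn and Dcn). Of 9 pericyte and smooth muscle genes 6 were listed, all lower, and 4 passed (748 to 895 against 475 to 586 CPM, Pdgfrb and Rgs5 highest). Of 12 endothelial genes 7 were listed, all lower, and 4 passed (478 to 602 against 340.0 to 385 CPM). Ptprb and Cdh5 were the highest of them, and Cdh5 (log2 fold change -0.48) did not pass. Of 11 osteoclast genes 7 were listed and 7 passed as lower (1582 to 3476 against 856 to 1339 CPM, Acp5 and Ctsk highest). Of 11 chondrocyte genes only Comp was listed (log2 fold change -0.47), and it did not pass. Without Control replicate 4 and FGFR1-CKO replicate 3, 6 osteocyte, 6 osteoclast and 3 endothelial genes fell. After rescaling by size factors all 18 osteoblast genes, 8 osteocyte genes, 6 pericyte and smooth muscle genes, 6 endothelial genes and Comp passed as lower. Rescaling raised the share of all listed genes passing as lower to 57.9%. No listed marker was at 0 in a library.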

How the data were processed

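RNA-seq of 4 Control and 4 FGFR1-CKO libraries of femoral cortical bone was analysed. Per the labels' protocols, RNase H removed ribosomal RNA and random hexamers primed the cDNA. The build mm10 and the tools STAR 2.7.9a, cutadapt, RSEM, Subread 2.0.1, featureCounts, DESeq2 and edgeR are named, without roles, in the submitters' processing notes. The authors deposited CPM per library, a mean normalized count (a signal averaged over libraries), log2 fold changes and p-values for 1994 genes, per the file headers; their smallest absolute log2 fold change is 0.495 and smallest mean 5.00 CPM. Library totals of 9642436 to 11094287 reads turned 100.0% of CPM values into whole reads within 0.001.

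limma 3.58.1 (R 4.3.3, eBayes with trend) was fitted on log2(CPM + 1) of all listed genes, a scale that understates changes of low genes; single values had exact two-sided permutation tests, whose inversion gave the intervals of ratios. The labels do not say that libraries come from separate mice, so p-values measure the spread between samples, which may be technical, and give no batch or sex. Replicate libraries differed by more than counting noise (chi-square over its degrees of freedom, at least 4.71), so none was merged. Members and lists were chosen with earlier results of these data known. Genes named are the members, Fgfr1, Col1a1, Col1a2, listed genes of the pathway lists, the 3 most alike per member and the 2 highest of each marker list. The result of 1 further marker list is not reported here. Sequences come from GENCODE M21 and RefSeq. Alternatives were other pseudocounts (0.1 and 5 CPM), size-factor scaling, a filter at 20 CPM, no trend, and libraries left out.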

Additional observations from a re-analysis of the deposited data

Results flagged for a closer look

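Of 28 sets of 4 values tested for a single distant library (each member in each genotype, as level and as ratio to collagen I), 2 had one, and chance gives about 1 in 20. Loxl1 in Control replicate 4 was 7.38 on the log2(CPM + 1) scale, against 7.52 to 7.53 in the other Control libraries, a gap of 0.887 of the range of the group. The log2 ratio of Loxl3 to collagen I in FGFR1-CKO replicate 3 was -10.7, against -10.1 to -10.0 in the others of its group, a gap of 0.846 of the range. That library also had the most Col1a1 of its group.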

How the results depend on the processing

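The signs of the 7 member fold changes held under every alternative run. Dividing by size factors gave 1154 lower genes and brought Loxl4 (-0.56) and Plod1 (-0.58) past the threshold. A filter at 20 CPM left 463 higher and 473 lower genes, since fewer were tested. Plod1 ran from -0.53 to -0.44 with 1 library left out and was -0.56 without Control replicate 4 and FGFR1-CKO replicate 3, the cause not tested. Loxl2 ran from -1.23 to -0.73 with 1 library left out (limma adjusted p 0.000836 to 0.0323). Ratios near 0 changed sign with 1 library left out, none passing. Over these and the fit without both libraries, the ratio to collagen I ran from -0.15 to 0.056 for Lox (0.012 without both) and -0.030 to 0.26 for Loxl1. It ran from -0.39 to 0.064 for Loxl2 and -0.076 to 0.18 for Plod2 (0.14 without both). Between members it ran from -0.088 to 0.40 for Lox to Loxl2, -0.041 to 0.16 for Loxl4 to Plod1, -0.038 to 0.12 for Loxl1 to Plod2, -0.014 to 0.65 for Loxl1 to Loxl2 and -0.53 to 0.017 for Loxl2 to Plod2. With 4 against 3 libraries the exact test has only 35 splits, and the fit without both libraries has fewer still. A few ratios at its smallest p could therefore not pass after adjustment. The planned count tests with edgeR and DESeq2 were not run, since the table holds CPM of selected genes. No paired analysis was possible because the labels give no replicate numbers; the numbers used here follow accession order. Depth limits the precision of Loxl3 in both groups and of Loxl4 in FGFR1-CKO, whose spread (5.05%) was close to counting error (4.7%); for the others the spread between libraries was larger than counting error.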
